A study of Mus musculus with 8 samples.

Results

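The Hedgehog pathway genes described here are 9 genes chosen by name for their place in the pathway: the ligand Shh, the receptor Ptch1, the transducer Smo, the transcription factors Gli1, Gli2 and Gli3, the ligand-binding protein Hhip and the coreceptors Gas1 and Boc. They and the gene lists used below were chosen with earlier results of these data known. Shares set beside those of all genes are therefore descriptive. The members were 9 of the 18193 genes measured and were read by 24 of 34945 probe sets that name a single gene. RNA came from 8 mouse samples in 4 groups of 2 independent cultures: pancreatic islet-like endocrine cells (PILECs) made from Men1-KO stem cells, PILECs made from WT stem cells, the Men1-KO mouse embryonic stem cells (mESCs) themselves and the WT mESCs. The Men1-KO cells were the menin-null line 3.2N and the WT cells the line TC-1, both of 129S6/SvEvTac background, so each genotype was a single line and genotype and line cannot be told apart. All mESCs had been grown with LIF on irradiated mouse embryonic fibroblasts and then moved to gelatin, and all PILECs passed through embryoid bodies, serum-free ITS-A medium, expansion with N2, B27 and FGF, and a last culture with nicotinamide. Each RNA was hybridised to an oligonucleotide array, and the values below are the deposited log2 levels, so a difference of 1 is a 2-fold difference. A gene was read by its brightest probe set, and it was said to have changed where limma's adjusted p was under 0.05.

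Hedgehog ligands bind Ptch1 and so release Smo, which Ptch1 otherwise holds inactive. Smo then acts at the primary cilium to turn the Gli proteins from repressors into activators. Gas1, Boc and the related Cdon help the ligand reach Ptch1, whereas Hhip binds the ligand and keeps it away, and Gli1, Ptch1 and Hhip are themselves target genes of the pathway. In the mouse embryo Shh is kept out of the endoderm that becomes the pancreas, and Shh expressed there disturbs the formation of the organ. Menin, the product of Men1, is a subunit of the MLL1 and MLL2 complexes, which place methyl groups on lysine 4 of histone H3 near the starts of genes.

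In PILECs, 4 of the 9 genes differed between genotypes. Shh was higher in Men1-KO PILECs, by 1.85-fold, and Gas1, Gli3 and Gli2 were lower, by 1.76-, 1.66- and 1.42-fold. Ptch1, Smo, Gli1, Hhip and Boc did not pass the test. Among all genes 2.26% were called higher and 4.42% lower in this comparison, and the median difference was -0.17 over the 9 genes and -0.0054 over all genes. The groups did not overlap for 8 of the 9 genes, against 54.7% of all genes. Read by their brightest probe sets, none of the 9 reached a 2-fold difference with an unadjusted p under 0.005, the threshold of the study, which 0.83% of all genes passed. Of the 24 probe sets 1 reached it, Gli3 1455154_at, against 0.67% of all probe sets. An unadjusted p under 0.05 was found for 6 of the 9 genes and for 23.3% of all genes. These calls rested on 2 arrays a group. Leaving out a PILEC array leaves 1 array in its group. Most or all of the calls were then lost, and the number called over all genes fell too. With single arrays left out the difference lay between 0.83 and 0.93 for Shh and between -0.88 and -0.74 for Gas1. It lay between -0.82 and -0.65 for Gli3 and between -0.59 and -0.42 for Gli2. Without moderation of the variances 0 of the 9 were called, with 5 at an unadjusted p under 0.05, and 356 of all 18193 genes were called. In RNA from a whole culture, fewer cells that express a gene and less RNA per cell cannot be told apart.

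**Figure D1:**
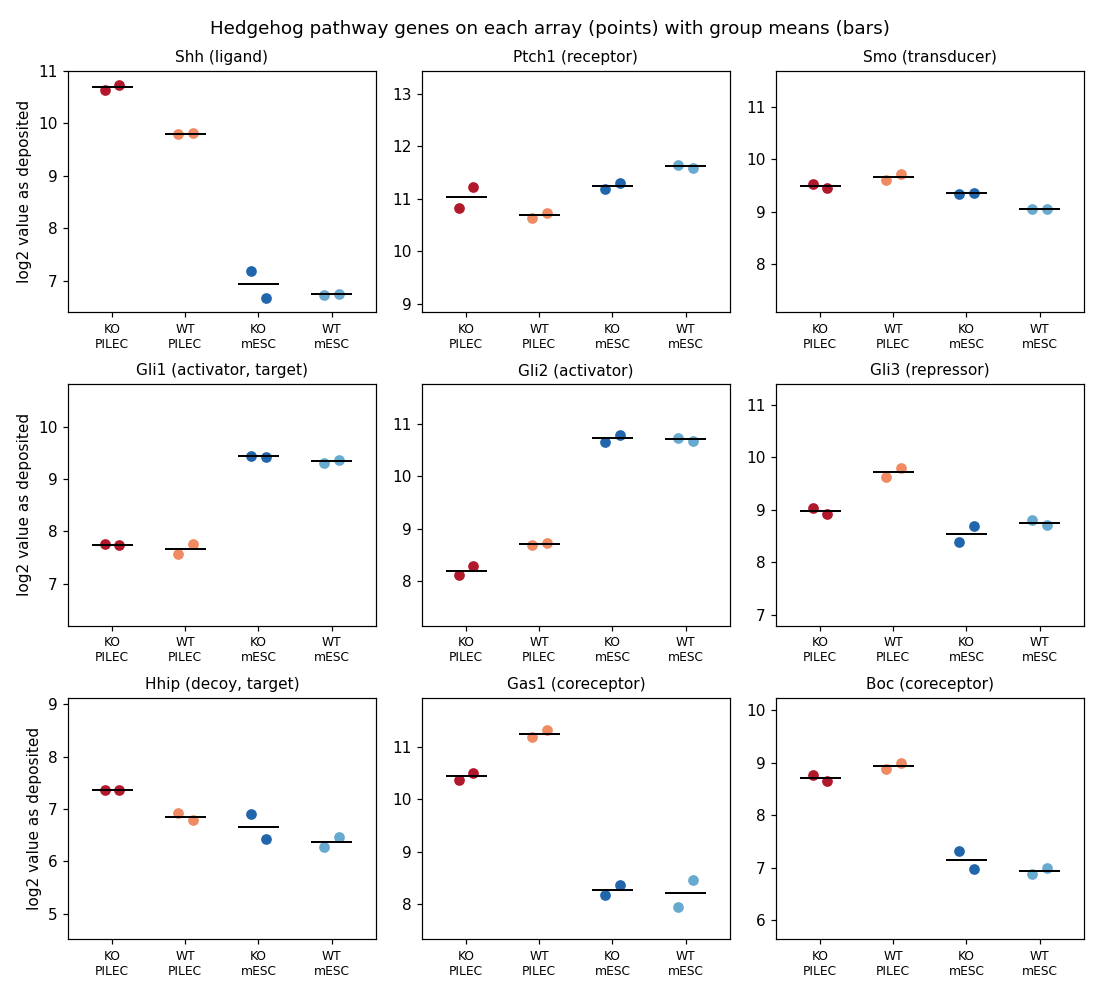
Deposited log2 level of each Hedgehog pathway gene on each of the 8 arrays (points) with the mean of each group (bars), for Men1-KO and WT PILECs and Men1-KO and WT mESCs; levels are not comparable between panels. The PILEC points lie above the mESC points for Shh, Gas1 and Boc and below them for Gli1 and Gli2, and within PILECs the Men1-KO points lie above the WT points for Shh and below them for Gas1, Gli2 and Gli3.

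The promoters of the 3 genes that fell in Men1-KO PILECs are shown because the complexes that hold menin are known to act near gene starts, although nothing was measured at these promoters here. Windows were found for 6 of the 9 genes in the RefSeq sequences of assembly GRCm38.p6. Each is the 250 bases before the gene's start, read on the gene's own strand, and the capitals mark CG dinucleotides.
Gas1, chr13:60177536-60177785, strand -: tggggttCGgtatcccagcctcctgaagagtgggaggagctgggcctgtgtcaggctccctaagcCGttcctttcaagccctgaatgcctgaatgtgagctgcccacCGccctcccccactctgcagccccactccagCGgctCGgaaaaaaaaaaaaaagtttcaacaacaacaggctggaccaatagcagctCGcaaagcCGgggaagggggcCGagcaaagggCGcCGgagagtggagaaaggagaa
Gli2, chr1:119053620-119053869, strand -: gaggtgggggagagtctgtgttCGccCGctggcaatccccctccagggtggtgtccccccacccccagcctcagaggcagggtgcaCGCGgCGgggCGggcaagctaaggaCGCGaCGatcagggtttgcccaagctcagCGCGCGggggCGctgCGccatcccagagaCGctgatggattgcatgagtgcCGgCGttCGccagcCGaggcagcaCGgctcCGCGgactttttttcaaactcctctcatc
Gli3, chr13:15463473-15463722, strand +: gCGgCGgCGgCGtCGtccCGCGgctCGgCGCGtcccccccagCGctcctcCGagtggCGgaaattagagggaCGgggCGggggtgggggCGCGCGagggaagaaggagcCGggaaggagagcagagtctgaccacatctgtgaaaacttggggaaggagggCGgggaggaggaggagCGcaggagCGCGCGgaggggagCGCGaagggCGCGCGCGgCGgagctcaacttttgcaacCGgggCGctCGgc
The CG count was 10 for Gas1, 22 for Gli2 and 34 for Gli3, against a median of 6 over the 32851 windows. At least as many were held by 37.8% of all windows for Gas1, 14.8% for Gli2 and 3.53% for Gli3, so the count of Gas1 was the least extreme of the 3. Ptch1 had 41, Hhip 28 and Smo 15. The Gli consensus GACCACCCA was searched on both strands, was not in the window of any of the 6 genes, and was in 74 windows in all, or 0.225%.

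Before the genes are taken in turn, the state of the arrays is given. Men1 itself was at 7.95 and 8.02 in Men1-KO PILECs, against 10.06 and 9.92 in WT PILECs, and at 7.77 and 7.82 in Men1-KO mESCs, against 9.90 and 9.97 in WT mESCs, which was 4.01- and 4.42-fold lower. The arrays of a group correlated at 0.9927 to 0.9975 over all probe sets that name a single gene. Array 2 of the Men1-KO mESCs was closer to array 1 of the WT mESCs (0.9940) than to array 1 of its own group (0.9927). The labelled cell types were checked against their markers. All 10 pluripotency markers were lower in PILECs than in mESCs of both genotypes, though Pou5f1 was still at 8.03 and 8.15 in Men1-KO PILECs and at 9.09 and 8.72 in WT PILECs. Of 15 islet markers, 10 were higher and 1 lower in Men1-KO PILECs than in Men1-KO mESCs, and 8 were higher and 2 lower in WT PILECs than in WT mESCs, but Pdx1, Gcg, Iapp, Ppy, Pcsk1 and Slc2a2 stayed under a log2 level of 7 in all PILECs, and Ins2, an insulin gene, did not pass the test in either genotype. A level of 7 is used here as the limit of clear expression, and no background was measured. By its brightest probe set Men1 read above this level in Men1-KO cells too. Of 12 neuron markers, 11 were higher in Men1-KO PILECs and 12 in WT PILECs than in mESCs, and 12 of 13 fibroblast and mesenchyme markers were higher in both.

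Shh is the secreted ligand that opens the pathway. Its level was 10.64 and 10.74 in Men1-KO PILECs, against 9.79 and 9.81 in WT PILECs. Both Men1-KO values lay above both WT values, and the gap was larger than the distance between arrays of a group. The difference was 0.88 (SE 0.15, limma adjusted p = 0.0195), and it lay between 0.83 and 0.93 when single arrays were left out, with adjusted p between 0.078 and 0.132 without a PILEC array. In Men1-KO mESCs Shh was at 7.20 and 6.67, against 6.74 and 6.76 in WT mESCs. The WT values fell between the Men1-KO values, and the difference of 0.19 did not pass the test (adjusted p = 0.582). Without array 2 of the Men1-KO mESCs this difference was 0.45 and passed (adjusted p = 0.0374), and without array 1 it was -0.07. Shh had the largest difference between cell types of the 9 genes in Men1-KO cells, and in WT cells it was level with Gas1. It was 13.5-fold higher in Men1-KO PILECs than in Men1-KO mESCs (3.75, SE 0.15, adjusted p = 2.39e-07) and 8.32-fold higher in WT PILECs than in WT mESCs (3.06, SE 0.15, adjusted p = 7.68e-07). The order of its levels was thus Men1-KO PILECs, WT PILECs and then both kinds of mESC, which did not differ beyond their spread.

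Ptch1, the receptor, was at 10.84 and 11.23 in Men1-KO PILECs, against 10.64 and 10.74 in WT PILECs. Men1-KO array 1 was close to the WT arrays, and the difference of 0.35 (SE 0.13, adjusted p = 0.165) did not pass the test, with a 95% interval of 0.04 to 0.65. It was 0.54 without Men1-KO PILEC array 1 and 0.15 without Men1-KO PILEC array 2. With a variance prior that followed the level and was robust to outliers it passed (adjusted p = 0.0402). In mESCs the order of genotypes was the other way. Ptch1 was at 11.19 and 11.31 in Men1-KO mESCs, against 11.65 and 11.59 in WT mESCs, a difference of -0.37 (SE 0.13, adjusted p = 0.186) that did not pass either. Between cell types, Ptch1 was 1.91-fold lower in WT PILECs than in WT mESCs (-0.93, adjusted p = 0.000325). As the mean of its probe sets this difference was -0.52 (adjusted p = 0.0027). In Men1-KO cells the values of PILECs and mESCs overlapped, with a difference of -0.22 (adjusted p = 0.184, 95% interval -0.52 to 0.09). WT mESCs had the highest level and WT PILECs the lowest, and no neighbours in the order of the 4 groups differed by the test. Without array 2 of the Men1-KO PILECs the difference between Men1-KO PILECs and Men1-KO mESCs was -0.42 and passed (adjusted p = 0.0122).

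Smo, the transmembrane protein that passes the signal on, varied least, with group means that spanned 0.60. It was at 9.53 and 9.46 in Men1-KO PILECs, against 9.60 and 9.72 in WT PILECs, a difference of -0.17 (adjusted p = 0.269, 95% interval -0.35 to 0.02). In Men1-KO mESCs it was at 9.35 and 9.36, against 9.06 and 9.06 in WT mESCs. The arrays of each mESC group lay close together and apart from the other group, but the difference of 0.29 (SE 0.08) did not pass over all genes (adjusted p = 0.104). Smo was 1.52-fold higher in WT PILECs than in WT mESCs (adjusted p = 0.000251) and differed by 0.14 between Men1-KO PILECs and Men1-KO mESCs, which did not pass (adjusted p = 0.164). After quantile normalisation was applied again this last difference was 0.35 and passed (adjusted p = 0.0114).

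Gas1 is a membrane-anchored coreceptor that promotes Shh signalling in the embryo. It was at 10.37 and 10.50 in Men1-KO PILECs, against 11.18 and 11.32 in WT PILECs. The genotypes were well apart and the arrays of a group close, and the difference was -0.81 (SE 0.16, adjusted p = 0.0298). It lay between -0.88 and -0.74 when single arrays were left out, with adjusted p between 0.0859 and 0.185 without a PILEC array. In Men1-KO mESCs Gas1 was at 8.17 and 8.36, against 7.95 and 8.46 in WT mESCs, so that the WT values lay on either side of the Men1-KO values (difference 0.06, adjusted p = 0.887). The 2 kinds of mESC had the lowest levels. Gas1 was 4.50-fold higher in Men1-KO PILECs than in Men1-KO mESCs (2.17, adjusted p = 6.71e-06) and 8.24-fold higher in WT PILECs than in WT mESCs (3.04, adjusted p = 1.06e-06). As means of its probe sets these differences were 1.28 in Men1-KO and 1.95 in WT cells, both called.

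Boc, a coreceptor of the immunoglobulin superfamily, was at 8.76 and 8.65 in Men1-KO PILECs, against 8.88 and 9.002 in WT PILECs. Both Men1-KO values were lower, but the difference of -0.23 (SE 0.13, adjusted p = 0.316) did not pass the test. Its call depended on the probe set. A less bright probe set, 1426869_at, read 7.52 and 7.72 in Men1-KO PILECs, against 8.45 and 8.42 in WT PILECs, a difference of -0.81 with an adjusted p of 0.0565 over all probe sets. Where Boc was read by this probe set in place of the brightest one, because it varied most or because probe sets that may match several transcripts were left out, the adjusted p over genes was 0.0458 and 0.0459 and Boc passed. In mESCs Boc was at 7.32 and 6.98 with Men1 knocked out, against 6.87 and 6.99 in WT, which overlapped (difference 0.22, adjusted p = 0.413). Boc was higher in PILECs than in mESCs of both genotypes, by 2.94-fold in Men1-KO cells (adjusted p = 1.04e-05) and 4.02-fold in WT cells (adjusted p = 2.48e-06). The mean of its probe sets gave 0.84 in place of 1.56 for the Men1-KO cells, still called (adjusted p = 0.000899).

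Hhip, which binds the ligand and limits the signal, was near or under 7 everywhere. It was at 7.36 and 7.36 in Men1-KO PILECs, against 6.92 and 6.79 in WT PILECs. Both Men1-KO values were higher, but the difference of 0.51 (SE 0.16, adjusted p = 0.102) did not pass. In the fit to the 4 PILEC arrays alone it did (adjusted p = 0.0303), and likewise without either Men1-KO mESC array (adjusted p = 0.0219). Hhip was at 6.91 and 6.42 in Men1-KO mESCs, against 6.28 and 6.47 in WT mESCs, with overlapping values (difference 0.29, adjusted p = 0.375); without array 2 of the Men1-KO mESCs the difference was 0.54 and passed (adjusted p = 0.0384). Hhip was higher in PILECs than in mESCs by 1.62-fold in Men1-KO cells (adjusted p = 0.00444) and by 1.40-fold in WT cells (adjusted p = 0.0261), on the log2 scale 0.70 in Men1-KO and 0.48 in WT cells. As means of its probe sets the differences were 0.37 in Men1-KO and 0.30 in WT cells, both called, and without Men1-KO mESC array 2 the Men1-KO difference was 0.45. The WT call was lost without WT mESC array 1 (adjusted p = 0.138) and without either WT PILEC array (adjusted p = 0.136 and 0.0622), with median centring (adjusted p = 0.0653) and without moderation (adjusted p = 0.101).

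Gli1, an activator and the classical readout of the pathway, was read by a single probe set. It was at 7.76 and 7.73 in Men1-KO PILECs, against 7.57 and 7.76 in WT PILECs. The values overlapped and the difference was 0.08 (SE 0.09, adjusted p = 0.636), with a 95% interval of -0.12 to 0.29. In Men1-KO mESCs Gli1 was at 9.44 and 9.42, against 9.31 and 9.36 in WT mESCs, a difference of 0.10 (adjusted p = 0.615) whose 95% interval was -0.11 to 0.31. Both intervals leave out a difference of 0.5 in either direction. Between cell types Gli1 was lower in PILECs, by 3.22-fold in Men1-KO cells (-1.69, adjusted p = 8.85e-07) and by 3.18-fold in WT cells (-1.67, adjusted p = 1.01e-06), while Shh was higher in the same arrays.

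Gli2, the main activator at the start of the response in the mouse, was at 8.11 and 8.28 in Men1-KO PILECs, against 8.68 and 8.72 in WT PILECs. Both Men1-KO values were lower than both WT values (difference -0.50, SE 0.09, adjusted p = 0.0242). The call was lost without either WT mESC array (adjusted p = 0.0572), without Men1-KO PILEC array 1 (adjusted p = 0.102) and without either WT PILEC array (adjusted p = 0.131 and 0.154), with differences between -0.52 and -0.42. Without Men1-KO PILEC array 2 it was kept (-0.59, adjusted p = 0.0494). In mESCs the values of the genotypes crossed. Gli2 was at 10.65 and 10.79 in Men1-KO mESCs, against 10.72 and 10.67 in WT mESCs (difference 0.02, adjusted p = 0.937). It was lower in PILECs than in mESCs by 5.74-fold in Men1-KO cells (-2.52, adjusted p = 1.56e-07) and by 4.002-fold in WT cells (-2.001, adjusted p = 5.38e-07), and Men1-KO PILECs had the lowest level of all groups.

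Gli3, which in the absence of ligand is cut to a repressor, was at 9.04 and 8.93 in Men1-KO PILECs, against 9.63 and 9.81 in WT PILECs. The genotypes did not overlap, and the difference was -0.73 (SE 0.12, adjusted p = 0.0165). It lay between -0.82 and -0.65 when single arrays were left out, with adjusted p between 0.0613 and 0.131 without a PILEC array. In Men1-KO mESCs Gli3 was at 8.39 and 8.69, against 8.80 and 8.72 in WT mESCs. Here the second Men1-KO array lay next to the WT arrays, and the difference of -0.22 did not pass (adjusted p = 0.392). Unlike Gli1 and Gli2, Gli3 was higher in PILECs than in mESCs, by 1.36-fold in Men1-KO cells (adjusted p = 0.0118) and by 1.94-fold in WT cells (adjusted p = 0.000165). The Men1-KO call was lost without Men1-KO mESC array 1 (adjusted p = 0.0594) and without Men1-KO PILEC array 1 (adjusted p = 0.0673), and where Gli3 was read by its probe set of largest variance (0.20, adjusted p = 0.215).

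**Figure D2:**
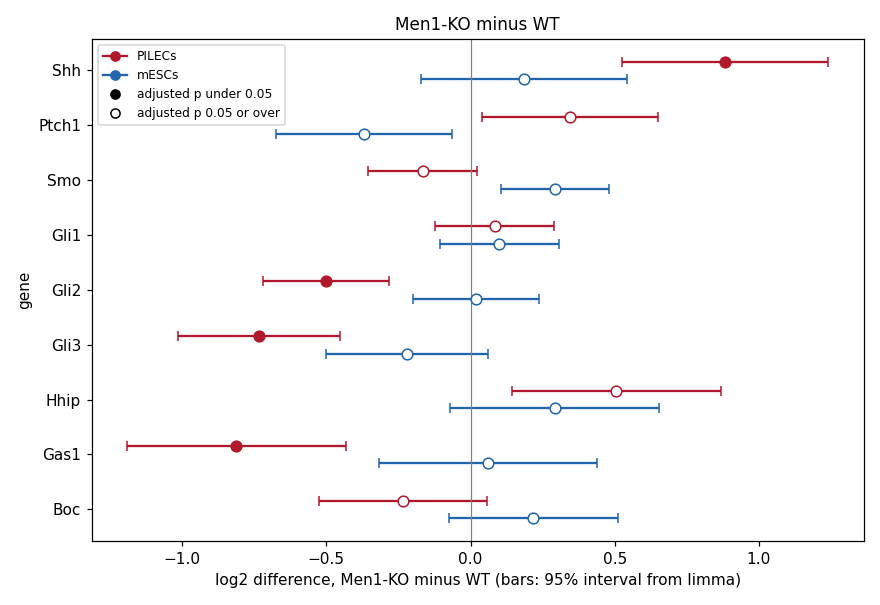
Log2 difference of Men1-KO minus WT for each gene in PILECs and in mESCs (points, filled where limma's adjusted p was under 0.05) with its 95% interval (bars). Filled points are those of Shh (0.88), Gli2 (-0.50), Gli3 (-0.73) and Gas1 (-0.81) in PILECs, and no point of the mESCs is filled.

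In mESCs, limma called 0 of the 9 genes between genotypes, and 2 (Smo and Ptch1) had an unadjusted p under 0.05, as 18.5% of all genes did. Over all genes 1.29% were called higher and 2.36% lower, and 0.423% passed the threshold of the study. The median difference was 0.10 over the 9 genes and 0.01 over all genes. A call in PILECs and none in mESCs does not show that the effect of genotype differed between the cell types, so this difference was tested itself. Of the 9 genes, 0 passed by limma and 7 had an unadjusted p under 0.05, against 18.7% of all genes, while 1.5% of all genes were called higher and 1.57% lower, and 1.36% passed the threshold of the study. The values closest to passing were those of Smo (-0.46, adjusted p = 0.0824), Gli2 (-0.52, adjusted p = 0.0871), Ptch1 (0.71, adjusted p = 0.0917) and Gas1 (-0.87, adjusted p = 0.0962). With the variance prior that follows the level, 4 genes passed (these 4), and without moderation 0 passed, while 4 had an unadjusted p under 0.05. Leaving out array 1 of the Men1-KO mESCs let 1 gene pass (Shh), and so did leaving out array 1 of the Men1-KO PILECs (Ptch1).

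Between cell types, 7 of the 9 genes changed in Men1-KO cells, 5 higher and 2 lower in PILECs, and all 9 changed in WT cells, 6 higher and 3 lower. Over all genes 28.9% were called higher and 36.1% lower in Men1-KO cells, and 27.8% higher and 35.3% lower in WT cells. Higher calls thus made up a larger share of the 9 genes than of all genes. With so many genes changed and so few members, the sizes are given instead. Shh, Gas1, Boc, Gli1 and Gli2 passed the threshold of the study in each genotype, against 31.6% of all genes in Men1-KO cells and 30.4% in WT cells. Ligand and coreceptors were higher in PILECs and the activators Gli1 and Gli2 lower. Each comparison of cell types shares its arrays with the comparisons of genotypes, and the values stand side by side for that reason.

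**Figure D3:**
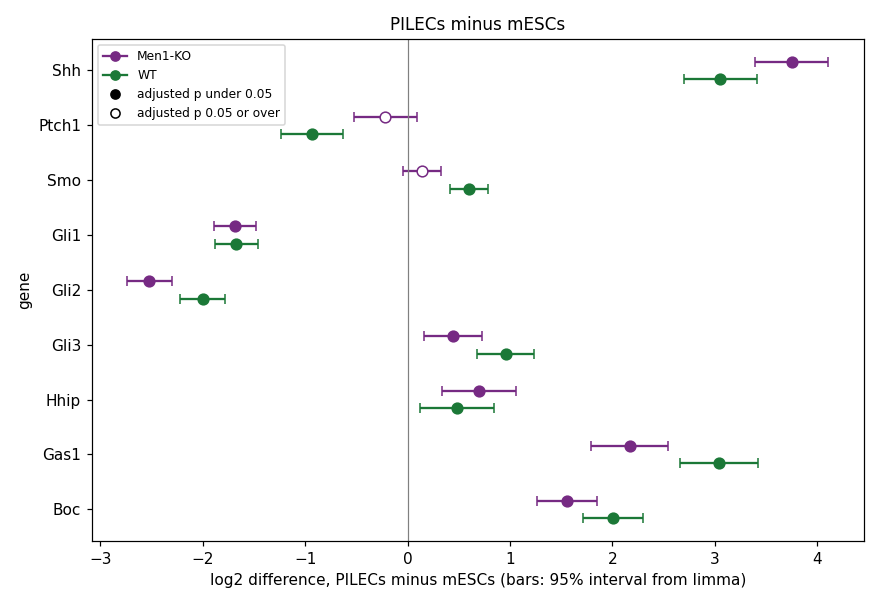
Log2 difference of PILECs minus mESCs for each gene in Men1-KO and in WT cells (points, filled where limma's adjusted p was under 0.05) with its 95% interval (bars). Shh (3.75 and 3.06), Gas1 (2.17 and 3.04) and Boc (1.56 and 2.01) lie right of 0 and Gli1 (-1.69 and -1.67) and Gli2 (-2.52 and -2.001) left of it in Men1-KO and WT cells, and only Ptch1 and Smo in Men1-KO cells are open.

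The other probe sets of the 9 genes were read next, since a probe set reports only its own stretch of a transcript. Between genotypes in PILECs 7 of the 24 probe sets changed, 2 higher and 5 lower, against 3.87% of all probe sets. Both probe sets of Shh were higher in Men1-KO PILECs. The second, 1427571_at, was at 7.66 and 7.63 in Men1-KO PILECs, against 6.92 and 6.73 in WT PILECs (difference 0.82, adjusted p = 0.0289). The lower ones were 2 of Gas1, 2 of Gli3 and 1 of Gli2. The largest was Gli3 1455154_at, at 8.21 and 7.97 in Men1-KO PILECs, against 9.08 and 9.29 in WT PILECs, which was 2.13-fold lower (difference -1.09, adjusted p = 0.00678). Gas1 1448494_at was at 9.20 and 9.19 in Men1-KO PILECs, against 10.03 and 9.90 in WT PILECs (difference -0.76, adjusted p = 0.00921). The third probe sets of Gas1 (1456322_at, under 7 in every PILEC array) and of Gli3 (1450525_at, under 7 on every array) differed by -0.18 and -0.10 and did not pass, nor did the second of Gli2 (1446086_s_at, -0.37, adjusted p = 0.142). Most or all of these calls too were lost when a PILEC array was left out, which leaves 1 array in its group.

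**Figure D4:**
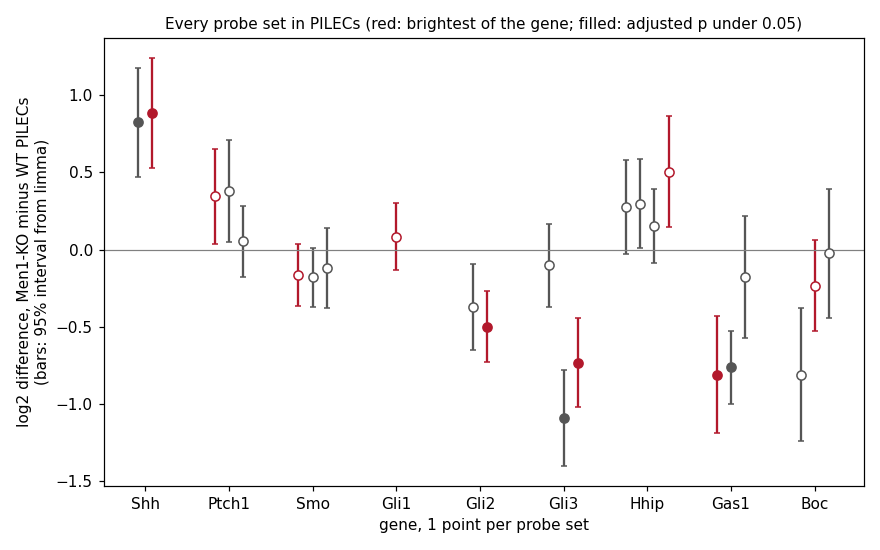
Log2 difference of Men1-KO minus WT PILECs for each of the 24 probe sets of the 9 genes (points, red for the brightest probe set of a gene, filled where limma's adjusted p over all probe sets was under 0.05) with its 95% interval (bars). Both points of Shh are filled above 0, and the 5 filled points below 0 belong to Gli2, Gli3 and Gas1.

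In mESCs 0 of the 24 probe sets were called by limma between genotypes, against 2.2% of all probe sets. An unadjusted p under 0.05 was found for 5 of the 24 and, read by brightest probe sets, for 18.5% of all genes. Between cell types 16 were called in Men1-KO cells and 18 in WT cells, against 62.7% of all probe sets in Men1-KO cells and 60.5% in WT cells. The difference of the genotype effects was called for 1 probe set, Gas1 1448494_at (-0.90, adjusted p = 0.0285), against 1.6% of all probe sets. Without either PILEC array of either genotype or without WT mESC array 1 it was called for none of the 24. In Men1-KO cells Ptch1, Boc and Gas1 had probe sets that went apart between cell types. Ptch1 1439663_at was at 7.16 and 7.27 in PILECs, against 6.50 and 6.82 in mESCs, and rose (0.55, limma adjusted p = 0.0099), where the brightest one did not pass. Boc 1427517_at, under 7 on every array, was lower in PILECs (-0.48, limma adjusted p = 0.0461), where 1426869_at (1.43) and 1427516_a_at (1.56) were higher. Gas1 1456322_at, under 7 in every PILEC array, differed by -0.43 and did not pass (limma adjusted p = 0.0576), where 1416855_at (2.17) and 1448494_at (2.11) were higher.

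The rest of the pathway was read from 4 lists of 78 genes, of which 73 were measured. Between genotypes in PILECs 8 of the 73 changed, 3 higher and 5 lower, against 2.26% of all genes higher and 4.42% lower. Of 14 genes for other ligands, ligand release and reception, Ihh was higher and Cdon and Disp1 were lower. Cdon, the coreceptor related to Boc, was at 8.48 and 8.59 in Men1-KO PILECs, against 9.70 and 9.83 in WT PILECs, a 2.35-fold difference (-1.23, SE 0.10, adjusted p = 0.00162). As the mean of its probe sets the difference was -0.58 (adjusted p = 0.00897). Ihh, a second ligand, was at 6.59 and 6.51 in Men1-KO PILECs, against 5.80 and 6.03 in WT PILECs, under the level of 7 in all (0.64, adjusted p = 0.042), and Disp1, which releases ligand from the cell, had a difference of -0.50 (adjusted p = 0.0379), which was -0.32 and did not pass (adjusted p = 0.565) when Disp1 was read by its probe set of largest variance. None of the 26 intracellular regulators of Gli and none of the 13 genes of cilium transport passed by limma, with 3 and 1 at an unadjusted p under 0.05.

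Of 20 genes listed as Gli targets, 2 were higher and 3 lower in Men1-KO PILECs, and their median difference was -0.08. Foxa2, a transcription factor of endoderm and floor plate, was at 8.78 and 8.84 in Men1-KO PILECs, against 8.004 and 7.87 in WT PILECs (0.88, adjusted p = 0.00403). Olig2, of ventral neural progenitors, was higher by 0.54 (adjusted p = 0.0278). The signalling genes Wnt5a and Bmp4 and the cyclin gene Ccnd2 were lower, with differences of -0.73 (adjusted p = 0.0466), -0.69 (adjusted p = 0.021) and -0.51 (adjusted p = 0.0202). Thus the called targets moved in both directions. Gli1, Ptch1 and Hhip, which are read as targets most often, did not pass, which does not show that they were unchanged. Ptch1 (0.35, limma unadjusted p = 0.031) and Hhip (0.51, limma unadjusted p = 0.012) were higher in Men1-KO PILECs without overlap of the arrays. Gli1 differed by 0.08 and its arrays overlapped. A change in the output of the pathway was not tested. Fewer of the 8 calls over all lists were left when a PILEC array was left out, and the number called over all genes fell too.

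**Figure D5:**
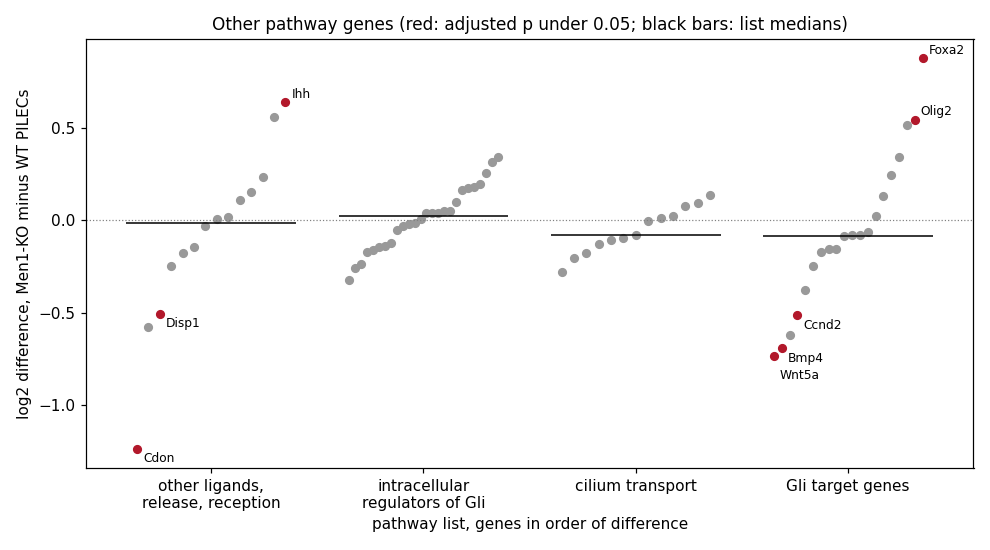
Log2 difference of Men1-KO minus WT PILECs for the 73 measured genes of the 4 pathway lists, in order of size within each list (points, red where limma's adjusted p was under 0.05) with the median of each list (black bars). Cdon (-1.23) is the lowest and Foxa2 (0.88) the highest point, and the lists of intracellular regulators and of cilium transport hold no red point.

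Between genotypes in mESCs 3 of the 73 genes changed, 2 higher and 1 lower, against 1.29% of all genes higher and 2.36% lower. Bmp4 was higher in Men1-KO mESCs, at 10.59 and 10.82, against 9.57 and 9.50 in WT mESCs (1.16, adjusted p = 0.00567), whereas it was lower in Men1-KO PILECs. The kinase gene Csnk1e was higher by 0.74 (adjusted p = 0.00612) and the glypican gene Gpc4 was lower (difference -0.88, adjusted p = 0.0187). Leaving out an mESC array leaves 1 array in its group. The number called was then lower without either WT mESC array and higher without Men1-KO mESC array 2, among the 73 and over all genes alike. With single arrays left out the difference lay between 1.05 and 1.28 for Bmp4, 0.71 and 0.76 for Csnk1e and -0.98 and -0.79 for Gpc4. Between cell types, 39 genes were higher and 16 lower in Men1-KO PILECs than in Men1-KO mESCs, and 39 were higher and 17 lower in WT PILECs than in WT mESCs. Over all genes 28.9% were higher and 36.1% lower in Men1-KO cells and 27.8% higher and 35.3% lower in WT cells. Of the 26 intracellular regulators 16 were higher in each genotype, among them Gpr161 (2.99 in Men1-KO and 2.66 in WT cells), a cilium receptor that restrains the pathway, and Gsk3b (2.29 and 2.26), a kinase that marks Gli proteins for processing. The kinesin gene Kif3a was higher by 2.85 in Men1-KO and 2.80 in WT cells. Among genes for release and reception, Gpc6 (3.58 and 3.91) and Disp2 (3.26 and 2.69) were higher and Lrp2 (-3.43 and -3.73) was lower. As means of all probe sets of a gene these differences were smaller for Gpc6 (2.26 in Men1-KO and 2.24 in WT cells), Disp2 (1.10 and 0.82) and Gpr161 (1.501 and 1.34), and all were still called. Of the targets, Osr1 was higher by 3.33 in Men1-KO and 3.83 in WT cells and Wnt5a by 2.29 and 3.10. The rule for naming genes gave Nkx2-2 (2.37) and Bmp4 (-2.27) for Men1-KO cells alone and Ccnd2 (2.82) and Mycn (-2.45) for WT cells alone, which is an order of size and not a test between them.

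Markers of other cells moved with the genotype in PILECs. Of 12 striated muscle markers 7 were lower and 0 higher in Men1-KO PILECs, with a median difference of -1.51, and their summed level was 2471 to 3334 in Men1-KO PILECs and 8743 to 10986 in WT PILECs on the linear scale. The muscle factors Myod1, Myf5 and Myf6 and the enzyme Ckm were under 7 in every group. Of 13 fibroblast and mesenchyme markers 4 were lower and 1 higher, with a summed level of 27878 to 36366 in Men1-KO PILECs and 35004 to 39132 in WT PILECs. Of 10 pluripotency markers 5 were lower, with a summed level of 8062 to 8589 in Men1-KO PILECs and 10943 to 12233 in WT PILECs. Gas1, Gli2, Gli3, Cdon, Disp1, Wnt5a, Bmp4 and Ccnd2 were lower in the same arrays, and the part of these cells in their differences was not tested. On the other side, 3 of 9 neural progenitor and glia markers (Gfap, Olig1 and Olig2, which is also on the list of targets) were higher. So were 1 of 12 neuron markers (Syp) and Shh, Foxa2 and Ihh. The summed level of the neural progenitor and glia markers was 13810 to 14566 in Men1-KO PILECs and 14148 to 14867 in WT PILECs, and that of the neuron markers 52276 to 59814 in Men1-KO PILECs and 51499 to 53905 in WT PILECs. Of 15 islet markers 0 were called by limma, with 6 at an unadjusted p under 0.05, and their summed level was 5059 to 5749 in Men1-KO PILECs and 4401 to 5281 in WT PILECs. Their part in the difference of Shh was not tested.

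Across the 8 arrays, the genes whose pattern was most like that of a Hedgehog gene were taken from 6300 genes that reached a level of 7 in some group and whose group means spanned at least 1. Shh was followed most closely by Ntn4, Gm14204 and Diras2 (Pearson r of 0.9988 to 0.9983), Boc by Zeb1, Fat3 and Ptgds (0.9985 to 0.9968) and Gas1 by Ahsa2, Naxd and Tgfb2 (0.9959 to 0.9953). For Gli1 they were Xpot, Plk3 and Bst2 (0.9991 to 0.9988) and for Gli2 Tmem243, Uba6 and Gtf2f2 (0.9998 to 0.9995). The arrays share 2 cell types, and many genes that differ between them correlate: 1290 of the 6300 had an r over 0.99 with Gli2, 662 with Gli1, 211 with Shh, 88 with Boc and 38 with Gas1. Ptch1, Smo and Hhip, whose own group means spanned less than 1, were not taken. Among the members taken Gli3 had the pattern least shared, with 0 genes over 0.99, and Itga8, Crispld1 and Fos were closest (0.9869 to 0.9826).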

How the data were processed

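RNA of 8 cultures was hybridised to Affymetrix mouse genome arrays, 6 µg of RNA a sample. The authors deposited log2 values for 45101 probe sets. RMA and Partek are credited in the submitters' processing notes and Microarray Analysis Suite in the methods, so the summarisation behind the values is not settled. They ranged from 3.26 to 15.2. No genome build was stated for the arrays, and promoter windows come from RefSeq on GRCm38.p6. After 64 control probe sets, 9160 without a gene and 932 with several were left out, 34945 probe sets named 18193 genes, 34741 of them matched to RefSeq by gene ID with 0 symbols changed.

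Each gene was read by its brightest probe set over the 8 arrays. A fit of the 4 group means to all 8 arrays was made with limma 3.58.1 in R 4.3.3, with moderated variances (4 residual and 3.72 prior degrees of freedom) and Benjamini-Hochberg adjustment over all genes, and again over all probe sets. All tests were two-sided. The number of arrays limits the precision: with 2 against 2, an exact permutation test of a single value cannot go below p = 0.333. The fit was tested on simulated data. Between genotypes it recovered 25% of changes of 0.5 in PILECs and 21% in mESCs. Of changes of 1 it recovered 73% in PILECs and 77% in mESCs. Most changes of 0.5 were thus missed in that trial, and the share missed in the deposited values was not tested. The members and gene lists were chosen with earlier results of these data known. Genes named beside the 9 were other pathway genes with an adjusted p under 0.05 between genotypes, the 10 with the largest differences between cell types, and the 3 most correlated with each member whose group means spanned at least 1. Alternatives were normalisation, choice of probe set, a filter at 7, the arrays fitted, moderation, a replicate block, the threshold of the study and leaving out each array. H3K4me3 data were not analysed here.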

Additional observations from a re-analysis of the deposited data

Results flagged for a closer look

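The effect of genotype differed between PILECs and mESCs, by the test of the difference itself in limma, for 5 of the 73 other pathway genes, 1 upward and 4 downward, and for 1 of the 24 probe sets of the 9 genes. Over all genes 1.5% were called upward and 1.57% downward, and 1.6% of all probe sets were called. The effect in PILECs minus that in mESCs was -1.85 for Bmp4 (adjusted p = 0.00458), which was lower in Men1-KO PILECs and higher in Men1-KO mESCs. It was -1.33 for Cdon (adjusted p = 0.00734), at 8.06 and 8.29 in Men1-KO mESCs, against 8.09 and 8.07 in WT mESCs, and -0.68 as the mean of its probe sets (adjusted p = 0.0273). Sfrp1, an inhibitor of Wnt ligands, had -0.95 (adjusted p = 0.0421) and Csnk1e -0.70 (adjusted p = 0.0272). Foxa2 had 0.94 (adjusted p = 0.0171), at 6.89 and 6.96 in Men1-KO mESCs, against 6.90 and 7.08 in WT mESCs. The Gas1 probe set 1448494_at had -0.90 (adjusted p = 0.0285 over all probe sets), and the brightest Gas1 probe set had -0.87 and did not pass (adjusted p = 0.0962). No cause was tested. Groups of 2 are too small for a test of single arrays that stand apart.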

How the results depend on the processing

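The counts of genes called depended on the moderation of variances and on single arrays, and so did those over all genes. Between genotypes 1216 of all genes were called in PILECs and 663 in mESCs. Without moderation these numbers were 356 and 65, and with the prior that follows the level 2348 and 1343. On the arrays of the compared groups alone they were 1030 in PILECs and 12 in mESCs. Of the 9 genes, 4 were called between genotypes in PILECs, 0 without moderation, 0 at the threshold of the study (2-fold and an unadjusted p under 0.005, by the brightest probe set; Gli3 1455154_at passed it) and 0 to 5 with an array left out. In mESCs 0 were called, 1 with the prior that follows the level and 0 to 2 with an array left out. The difference of the genotype effects was called for 0, for 1 after quantile normalisation again, 2 among genes with a group mean of at least 7, 4 with the prior that follows the level and 0 to 1 with an array left out. Between cell types 9 were called in WT cells and 5 at the threshold of the study; leaving out an array gave 6 to 8 in Men1-KO and 8 to 9 in WT cells. Of the 73 other pathway genes, 8 were called in PILECs, 2 without moderation, 13 with the prior that follows the level, 1 at the threshold of the study and 2 to 9 with an array left out. In mESCs 3 were called, 0 on the 4 mESC arrays alone, 0 without moderation, 5 with that prior, 1 at the threshold of the study and 0 to 7 with an array left out. At that threshold 31 were called between cell types in Men1-KO and 30 in WT cells, and the difference of the genotype effects gave 5, 0 without moderation, 2 at the threshold and 1 to 7 with an array left out. Of the 24 probe sets, leaving out an array gave 0 to 4 in mESCs, 0 to 9 in PILECs and 0 to 3 for the difference of the genotype effects.

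Replicate numbers were not seen to pair the samples: deviations of equal numbers correlated at -0.277 to 0.209 between groups. Between genotypes they correlated at -0.277 in mESCs and -0.23 in PILECs. Between cell types they correlated at 0.209 in Men1-KO and 0.0641 in WT cells. Whether arrays shared a batch was not tested. With the replicate block 4 of the 9 genes were called in PILECs, as without it, 5 of the other pathway genes (8 without), 3 for the difference of the genotype effects (5 without) and 0 of the 24 probe sets for that difference (1 without). With the numbers crossed in WT, chosen after seeing the data, 4 of the 9 genes were called in PILECs. Over all genes limma called 1512 in PILECs with the crossed block, 734 with the replicate block and 1216 without a block.

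Differences that changed sign were all uncalled in the main fit. Those of Shh in mESCs and of Ptch1 and Smo between cell types in Men1-KO cells passed in another setting. Between genotypes in mESCs Gli2 was -0.00393 as the mean of its probe sets, and with an array left out it lay between -0.0519 and 0.0927, Shh between -0.0748 and 0.448 and Gas1 between -0.192 and 0.314; in PILECs Gli1 lay between -0.0111 and 0.179. Between cell types in Men1-KO cells Ptch1 was 0.0307 after quantile normalisation again and 0.0256 as the mean of its probe sets, and Smo was -0.00160 as that mean. The difference of the genotype effects of Gli1 was 0.0290 after quantile normalisation again, 0.0127 with median centring and between -0.110 and 0.0796 with an array left out, and that of Hhip between -0.0296 and 0.458. The cause was not tested.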
